A study of Homo sapiens with 6 samples.

Results

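This account concerns 36 genes of sphingolipid metabolism and the epidermal lipid barrier in HaCaT cells, a spontaneously immortalised line of human keratinocytes, with and without dacomitinib. The genes were taken by symbol from the deposited table of 58735 genes, and all 36 symbols were found there once. RNA was sequenced from 3 control samples and from 3 samples exposed for 48 h to dacomitinib, a drug that binds EGFR and its related receptor kinases covalently. All samples are labelled as wild-type HaCaT. According to the design text, exposure began at 70% confluence, and 0.1% DMSO is ascribed there to the experimental group; a dose of the drug and a vehicle for the controls are not stated in the labels. No label ties a sample to its own culture, so the p-values describe the spread between these samples only, and that spread may be technical.

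Ceramides are built on the endoplasmic reticulum from serine and palmitoyl-CoA by serine palmitoyltransferase, a ketoreductase, ceramide synthases and a desaturase. They are then converted to glucosylceramide or sphingomyelin, or are broken down by ceramidases to sphingosine, which sphingosine kinases phosphorylate. In the outer epidermis, ceramides with very long and hydroxylated acyl chains are packed into lamellar granules, secreted, oxidised and bound to the cornified envelope. Inherited defects in many of these genes cause ichthyosis, a scaling disorder of the skin.

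Libraries held 14960650 to 16166582 fragments on genes in the controls and 15171200 to 16179273 in the dacomitinib group. Values are FPKM, fragments per kilobase of gene scaled by the size of the library. The controls are the columns marked with their initial and number. The other 3 columns carry a letter found in no label and were taken as dacomitinib because no other group is left, so every direction rests on that assignment. Of 10 keratinocyte markers, all were measurable, at a summed level of 1257 to 1320 FPKM in controls and 923 to 1103 with dacomitinib. That sum is mostly KRT5, KRT14 and SFN, and the markers did not move together. In the test described below 5 were lower and 3 higher, beside 34.8% and 25.4% of all tested genes. The lower ones were KRT5, at a mean of 452 and 358 FPKM, KRT14, at 239 and 131, and KRT6A, at 82.0 and 43.6. DSP, at 94.4 and 74.3, and EPCAM, at 72.1 and 47.3, were lower too. The calls of KRT5 and DSP were not made with TPM. The higher ones were KRT17, at a mean of 13.6 and 26.2 FPKM, CDH1, at 61.6 and 84.8, and KRT16, which reached 1 FPKM only through its treated libraries. Of 33 markers of fibroblasts, endothelium, melanocytes, leukocytes, sebocytes and adipocytes, 5 reached a mean of 1 FPKM and 10 had no fragment, among them COL1A2, PDGFRA, KDR, ADIPOQ and MOGAT1. Their summed levels were higher with dacomitinib for endothelium, at 1.87 to 2.22 against 10.6 to 13.5 FPKM, for fibroblasts, at 0.853 to 1.24 against 2.28 to 3.62, and for sebocytes and adipocytes, at 0.315 to 1.53 against 3.19 to 5.67. The endothelial sum is mostly CDH5, at a mean of 1.15 and 10.0 FPKM. VWF stood at 0.333 and 1.19 FPKM, without overlap, and PECAM1 at 0.474 and 0.793, with overlap, both below the limit for testing. CLDN5 and TEK had 6 and 2 fragments in controls and 0 with dacomitinib, and KDR had 0 throughout. The sebocyte and adipocyte sum is largely FABP4, at 0.651 and 3.54 FPKM, with 5 of its 8 markers at 0. In the fibroblast sum COL3A1 was higher, at a mean of 0.705 and 1.51 FPKM, with DCN at 0.0197 and 0.897 and LUM at 0.00783 and 0.282. COL3A1 and FABP4 reached a mean of 1 FPKM only through their treated libraries, so their entry into the test depended on their rise. COL1A1 stood at 0.330 and 0.216 FPKM, with overlap. VIM had 3 fragments in controls and 0 with dacomitinib, and COL1A2 and PDGFRA had 0 throughout. For melanocytes the sums were 2.43 to 2.87 and 3.40 to 4.18 FPKM, and for leukocytes 1.503 to 2.53 and 2.48 to 4.21. The part of such signals in the values of the 36 genes was not tested. In bulk RNA, fewer expressing cells and less RNA per cell cannot be told apart.

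Of the 36 genes, 26 had a mean of at least 1 FPKM over the 6 libraries and were tested. With dacomitinib 10 of them rose and 10 fell, and 6 did not pass the threshold, an adjusted p of 0.05 with limma on log2(FPKM + 1). Across all 13748 genes tested, 25.4% rose and 34.8% fell, 60.2% in all, a share that was lower than in the set for rises and close to it for falls; this difference was not tested. The median difference was -0.11 for the 26 genes and -0.06 for all tested genes on the log2 scale. The groups of libraries did not overlap for 20 of the 26, against 67.1% of all tested genes. Synthesis, head group, turnover and fatty acid genes each held both rises and falls. ACER2, a ceramidase, and UGCG, which makes glucosylceramide, were among the genes that rose, whereas the ceramidase ACER3, the sphingomyelin synthase SGMS2 and the fatty acid elongases ELOVL6 and ELOVL1 fell.

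**Figure D1:**
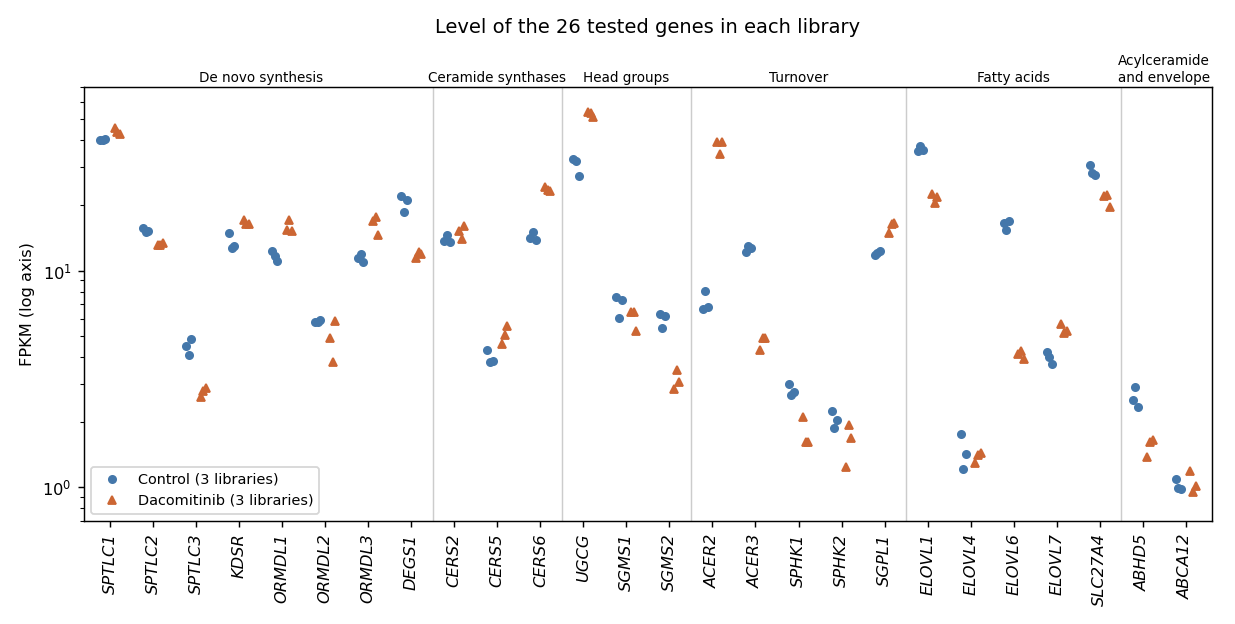
Level of the 26 tested genes in each library, in FPKM on a log axis, ordered by role; circles are the 3 control libraries and triangles the 3 dacomitinib libraries. The widest separations are in ACER2, at 6.66 to 8.08 against 34.4 to 39.3 FPKM, and ELOVL6, at 15.4 to 16.9 against 3.91 to 4.27 FPKM.

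How libraries are scaled shifts the balance of rises and falls. Under TPM, which gives each library the same sum, the median of all tested genes was 0.23 in place of -0.06, and the difference of each of the 26 genes was higher by 0.12 to 0.42 on the log2 scale. Under TPM 11 of the 26 rose and 6 fell, against 42% and 19.8% of all tested genes (61.8% either way), so with this scaling both shares were close to those of the table. With median-ratio scaling 11 rose and 10 fell, against 29.8% and 30.3% (60% either way), and with quantile normalization 11 rose and 9 fell, against 30.4% and 28.6% (59% either way). The same 10 genes rose under the deposited scaling, TPM, median-ratio scaling and quantile normalization, and 6 genes fell under all 4: SPTLC3, DEGS1, SGMS2, ACER3, ELOVL1 and ELOVL6. No gene of the 36 was called in opposite directions by any alternative.

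**Figure D2:**
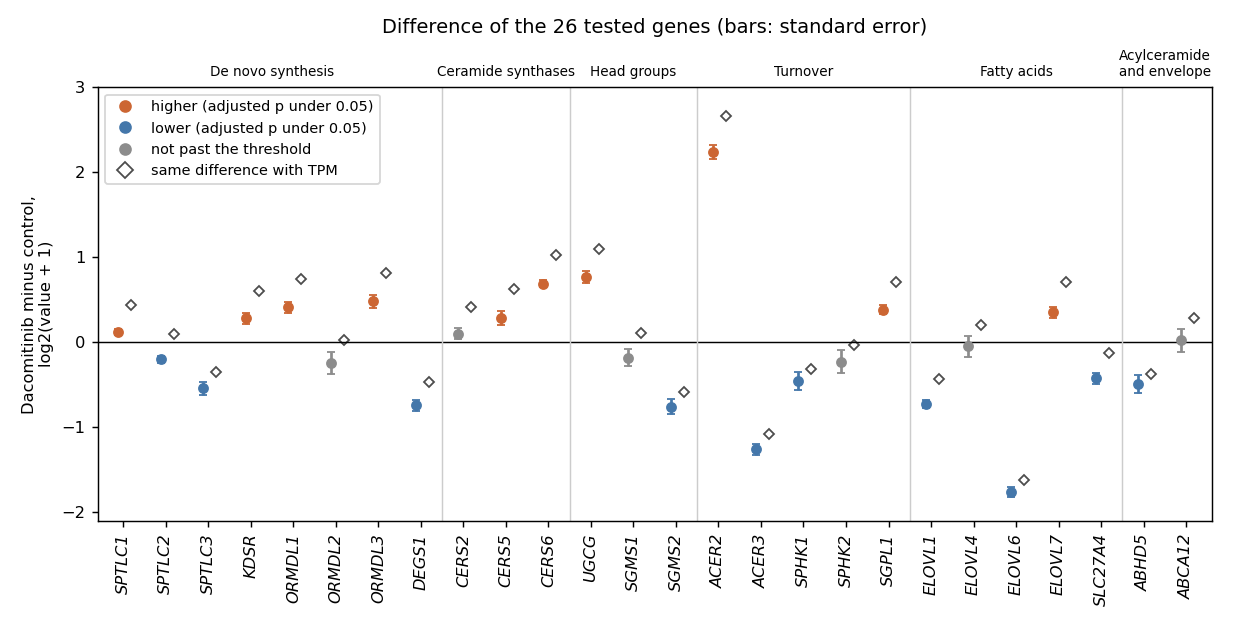
Difference between dacomitinib and control for the 26 tested genes on the log2(value + 1) scale; filled circles use the deposited FPKM, with the standard error as bars and colour for the call, and open diamonds use TPM. ACER2 is highest at 2.24 and ELOVL6 lowest at -1.76, and all diamonds lie above their circles.

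Ceramide turnover held the largest contrast. The alkaline ceramidases ACER2 and ACER3 both release sphingosine from ceramide, and they moved in opposite directions. ACER2, a Golgi enzyme (ENSG00000177076, chromosome 9, 19409059 to 19452020, GRCh38), stood at 6.66, 8.08 and 6.81 FPKM in the controls and at 39.3, 34.4 and 39.2 FPKM with dacomitinib. All 3 treated libraries were above all controls, and the mean was 5.24 times that of the controls. The log2 difference was 2.24 (SE 0.09, adjusted p = 3.67e-06, limma), which ranked 42 from the top among 13748 tested genes. ACER3, which acts on ceramides with unsaturated chains (ENSG00000078124, chromosome 11, 76860867 to 77026797), stood at 12.2, 13.0 and 12.7 FPKM in the controls and at 4.32, 4.91 and 4.89 FPKM with dacomitinib. Here all treated libraries were below all controls, with a log2 difference of -1.26 (SE 0.06, adjusted p = 9.54e-06). The mean of the controls was 2.69 times that of the treated libraries. These were 2 of the 3 genes of the set that differed by at least 1 on the log2 scale, as did 11.9% of all tested genes.

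Because the levels of ACER2 and ACER3 come from the same library, their relative shares do not depend on the scaling between libraries. ACER3 supplied 64.7, 61.6 and 65.2% of the summed ACER2 and ACER3 FPKM in the controls and 9.90, 12.5 and 11.1% with dacomitinib. The pair thus passed from mostly ACER3 to mostly ACER2 in each treated library, while the sum rose from 19.8 ± 1.14 to 42.3 ± 2.63 FPKM (SD, n = 3). The exact permutation test of the share, two-sided, gave p = 0.1, the smallest that 3 against 3 libraries can reach.

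The DNA before the starts of these oppositely moving ceramidase genes is shown to compare what lies there. It is taken from RefSeq on build GRCh38.p14, plus strand, up to the base before the first annotated exon, and capitals mark the GC box GGGCGG on either strand. The windows are chr9:19408759-19409008 for ACER2 and chr11:76860668-76860866 for ACER3.
ACER2: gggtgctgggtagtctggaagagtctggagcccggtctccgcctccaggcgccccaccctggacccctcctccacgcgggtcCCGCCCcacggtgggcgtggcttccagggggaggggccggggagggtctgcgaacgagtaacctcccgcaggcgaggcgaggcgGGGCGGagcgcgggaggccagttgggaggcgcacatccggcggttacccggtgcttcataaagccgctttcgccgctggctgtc
ACER3: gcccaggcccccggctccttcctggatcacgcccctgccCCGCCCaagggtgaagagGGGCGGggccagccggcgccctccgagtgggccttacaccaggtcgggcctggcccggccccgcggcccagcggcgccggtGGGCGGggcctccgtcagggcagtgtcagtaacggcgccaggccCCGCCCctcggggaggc
Both windows are rich in G and C, at 72.4% for ACER2 and 79.4% for ACER3, with 2 GC boxes in the former and 4 in the latter. RefSeq gives some genes several starts: the 33 of the 36 genes that were matched have 52 windows of 250 bases, and a gene was counted if any of its windows held the motif. Counted so, a GC box was found for all 10 matched genes that rose, all 9 matched genes that fell and 75.0% of the tested genes in the RefSeq table, so it does not separate the ceramidases. For ELOVL6 no window is shown because the bases before its RefSeq start lie in an annotated exon.

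The remaining turnover genes act on sphingosine and its phosphate. SGPL1, the lyase that degrades sphingosine-1-phosphate irreversibly, stood at 11.7, 12.0 and 12.3 FPKM in controls and rose to 15.0, 16.4 and 16.5 FPKM (0.38 on the log2 scale, SE 0.05, adjusted p = 0.000918, limma; 0.71 with TPM). SPHK1, a kinase that makes this phosphate, fell from 3.01, 2.67 and 2.76 to 2.11, 1.62 and 1.61 FPKM. Its difference was -0.46 (SE 0.10, adjusted p = 0.00825), and the call was not reached with TPM (adjusted p = 0.0737; 0.00359 to 0.0737 over its alternatives). SPHK2, the other kinase, stood at 2.24, 1.88 and 2.05 FPKM in controls and at 1.24, 1.95 and 1.69 FPKM with dacomitinib. Its groups overlapped and it did not pass (adjusted p = 0.181). SPHK2 also shares 11.0% of its exon bases with DBP and 4.09% with RPL18 on the other strand; the counting is not stated to use strand, so reads of these genes cannot be told apart there.

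Enzymes that attach a head group to ceramide also diverged. UGCG, glucosylceramide synthase (ENSG00000148154, chromosome 9, 111896766 to 111935369), stood at 32.7, 32.1 and 27.2 FPKM in controls and at 53.7, 53.5 and 51.3 FPKM with dacomitinib. It rose by 0.77 on the log2 scale (SE 0.07, adjusted p = 0.000172), and at a mean of 52.9 ± 1.36 FPKM it was the highest of the 36 genes in the treated libraries. SGMS2, a sphingomyelin synthase of the plasma membrane (ENSG00000164023, chromosome 4, 107824563 to 107915047), stood at 6.27, 5.45 and 6.15 FPKM in controls and at 2.83, 3.48 and 3.05 FPKM with dacomitinib. It fell by 0.76 (SE 0.09, adjusted p = 0.000340), with no overlap between groups. SGMS1, the Golgi sphingomyelin synthase, had 7.55, 6.04 and 7.33 FPKM in controls and 6.41, 6.42 and 5.28 FPKM with dacomitinib, which overlap. It did not pass (-0.18, SE 0.10, adjusted p = 0.177), and its difference was 0.11 with TPM.

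Within each library, UGCG made up 70.3, 73.6 and 66.9% of the summed FPKM of UGCG, SGMS1 and SGMS2 in controls and 85.3, 84.4 and 86.0% with dacomitinib, a combination formed after the values were seen. SGMS2 held 46.1 ± 1.13% of the sphingomyelin synthase FPKM in controls and 34.1 ± 3.14% with dacomitinib (SD, n = 3). Neither pair of groups overlapped, and both gave p = 0.1 in the exact permutation test.

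The sequences before the starts of UGCG and SGMS2, genes of competing pathways that moved apart, are shown for the same comparison. They are from RefSeq on GRCh38.p14, plus strand, at chr9:111896564-111896765 for UGCG and chr4:107824313-107824562 for SGMS2. Capitals mark the GC box GGGCGG in UGCG and the AP-1 motif TGANTCA in SGMS2, each searched on both strands.
UGCG: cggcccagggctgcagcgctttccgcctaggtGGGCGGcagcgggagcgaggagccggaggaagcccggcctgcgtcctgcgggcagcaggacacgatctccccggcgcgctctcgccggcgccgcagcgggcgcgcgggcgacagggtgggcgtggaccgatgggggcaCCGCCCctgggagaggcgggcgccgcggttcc
SGMS2: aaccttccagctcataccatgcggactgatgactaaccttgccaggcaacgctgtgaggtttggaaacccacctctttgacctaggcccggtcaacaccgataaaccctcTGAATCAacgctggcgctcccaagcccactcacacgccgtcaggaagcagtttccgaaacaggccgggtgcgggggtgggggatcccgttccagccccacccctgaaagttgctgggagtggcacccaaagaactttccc
UGCG holds 2 GC boxes in this stretch. In SGMS2 the AP-1 letters lie 140 to 134 bases before the start, and the stretch shown holds no GC box; the GC box counted for SGMS2 lies before another of its starts. The AP-1 motif occurred for 3 of the 33 matched genes, ALOXE3, SGMS2 and SPHK1, against 8.06% of all genes in the RefSeq table. ALOXE3 was below the limit. Among tested genes the motif occurred for 2 of 24, against 6.08% of all tested genes matched in the table. These 2, SGMS2 and SPHK1, are among the 9 matched genes that fell, and 0 of the 10 that rose held it. A link with direction was not tested. The GRHL motif AACCNGTT and the SREBP element TCACNCCAC were found for 0 of the 33 matched genes, against 1.85% and 1.09% of all 27305 genes in the RefSeq table. The C/EBP motif TTNNGCAA was found for 2 of the 33, ORMDL1 and PNPLA1, against 11.0% of all genes. The TATA box TATAAA was found for 1 of the 33, SGMS2, before a start other than the one shown, against 13.0% of all genes. Both shares are lower among tested genes, at 8.64% for the C/EBP motif and 7.64% for the TATA box. Of the 24 tested genes of the set that were matched, 1 held each. A match is only a match of letters in a window.

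De novo synthesis begins with serine palmitoyltransferase, whose subunit SPTLC1 pairs with SPTLC2 or SPTLC3. SPTLC3, the alternative catalytic subunit that favours shorter acyl chains, stood at 4.50, 4.08 and 4.83 FPKM in controls and fell to 2.61, 2.79 and 2.87 FPKM (log2 difference -0.54, SE 0.08, adjusted p = 0.00102, limma; -0.35 with TPM). SPTLC2, the main catalytic subunit, stood at 15.7, 15.1 and 15.3 FPKM in controls and at 13.2, 13.1 and 13.4 FPKM with dacomitinib. It fell by 0.20 (SE 0.04, adjusted p = 0.00500) under the deposited scaling, but its difference was 0.10 with TPM (adjusted p = 0.148) and -0.00025 with quantile normalization (adjusted p = 0.996), and its adjusted p ranged from 0.00403 to 0.996 over its alternatives. SPTLC3 held 22.5 ± 1.40% of the catalytic subunit FPKM in controls and 17.2 ± 0.601% in treated libraries (SD, n = 3), without overlap.

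SPTLC1 was the highest of the 36 genes in controls, at 40.2, 40.1 and 40.5 FPKM, and reached 45.4, 43.4 and 42.8 FPKM with dacomitinib. The difference of 0.12 (SE 0.04, adjusted p = 0.0347) was small, and its call was lost when any of the 6 libraries was left out (adjusted p = 0.0552 to 0.106). It was larger under other scalings, at 0.21 with median-ratio scaling (adjusted p = 0.00291), 0.37 with quantile normalization (adjusted p = 0.000179) and 0.44 with TPM (adjusted p = 0.000145). KDSR, the ketoreductase of the next step, stood at 14.8, 12.7 and 12.9 FPKM in controls and rose to 17.0, 16.3 and 16.4 FPKM (0.28, SE 0.07, adjusted p = 0.00872; 0.61 with TPM). DEGS1, the desaturase that turns dihydroceramide into ceramide (ENSG00000143753, chromosome 1, 224175756 to 224193441), stood at 22.05, 18.5 and 21.0 FPKM in controls and at 11.4, 12.2 and 12.0 FPKM with dacomitinib. Its fall of 0.74 (SE 0.07, adjusted p = 0.000154; -0.46 with TPM) was the largest among the synthesis genes, and the groups were far apart. DEGS2, which can also hydroxylate to make phytoceramides, was below the limit, with 17 fragments in the pooled controls and 43 in the pooled treated libraries.

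ORMDL proteins bind serine palmitoyltransferase and restrain it when ceramide is plentiful. ORMDL1 stood at 12.2, 11.7 and 11.1 FPKM in controls and rose to 15.3, 17.1 and 15.2 FPKM (0.41, SE 0.06, adjusted p = 0.00131; 0.74 with TPM). ORMDL3 stood at 11.4, 11.9 and 10.9 FPKM in controls and rose to 16.9, 17.7 and 14.6 FPKM (0.48, SE 0.08, adjusted p = 0.00172; 0.82 with TPM). Both inhibitors were thus higher in every treated library than in any control. ORMDL2 was near 5.8 FPKM in the controls, at 5.78, 5.82 and 5.91 FPKM, and was scattered with dacomitinib, at 4.87, 3.80 and 5.87 FPKM. It did not pass (-0.24, SE 0.13, adjusted p = 0.144), but without dacomitinib replicate 3 its difference was -0.36 (adjusted p = 0.0261; 0.0261 to 0.880 over its alternatives). ORMDL2 shares 32.7% of its exon bases with DNAJC14 on the other strand, so its level is uncertain. Its share of the ORMDL FPKM was 20.2 ± 0.841% in controls and 13.1 ± 3.31% with dacomitinib (SD, n = 3), without overlap.

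Ceramide synthases join an acyl-CoA to the sphingoid base, each with its own preferred chain length. CERS6, which uses palmitoyl-CoA (ENSG00000172292, chromosome 2, 168455862 to 168775137), stood at 14.1, 15.0 and 13.8 FPKM in controls and rose to 24.2, 23.6 and 23.3 FPKM (0.69, SE 0.05, adjusted p = 3.58e-05). CERS5, with a similar preference, stood at 4.31, 3.77 and 3.83 FPKM in controls and at 4.59, 5.05 and 5.57 FPKM with dacomitinib. It rose by 0.29 (SE 0.08, adjusted p = 0.0224; 0.63 with TPM). Its adjusted p was 0.0693 without control replicate 2, 0.0645 without control replicate 3, 0.0550 without dacomitinib replicate 2 and 0.0708 without dacomitinib replicate 3, so each of these libraries decides the call. CERS2, which makes very-long-chain ceramides, stood at 13.7, 14.6 and 13.5 FPKM in controls and at 15.2, 13.9 and 16.0 FPKM with dacomitinib. Its groups overlapped and it did not pass (0.10, SE 0.06, adjusted p = 0.205), although it was called higher with TPM (0.42, adjusted p = 0.00107), median-ratio scaling (0.19, adjusted p = 0.0360) and quantile normalization (0.31, adjusted p = 0.00515). CERS2 shares 20.4% of its exon bases with SETDB1 on the other strand. The exons of CERS6 overlap those of CERS6-AS1, with 3 fragments in all controls and 2 in all treated libraries.

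The makeup of the family shifted towards CERS6. CERS6 held 43.1, 44.0 and 43.7% of ceramide synthase FPKM in controls and 54.1, 54.9 and 51.5% with dacomitinib, while CERS2 passed from 41.7, 43.0 and 42.6% to 34.0, 32.3 and 35.5%. Neither set of shares overlapped between groups (exact permutation p = 0.1 for each). CERS3, the synthase of the epidermal acylceramides, was below the limit in both groups, with 121 fragments in the pooled controls and 100 in the pooled treated libraries. CERS4 had 14 and 27.

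Fatty acid elongases supply the acyl chains. ELOVL6, which extends palmitate (ENSG00000170522, chromosome 4, 110045846 to 110199199), stood at 16.5, 15.4 and 16.9 FPKM in controls and at 4.13, 4.27 and 3.91 FPKM with dacomitinib. Its fall of 1.76 (SE 0.06, adjusted p = 2.00e-06) was the largest of the 36 genes and ranked 269 from the bottom among 13748 tested genes. The control mean was 3.96 times the treated mean. ELOVL1, which makes the very long saturated chains of ceramides (ENSG00000066322, chromosome 1, 43363397 to 43368074), stood at 35.8, 37.5 and 35.9 FPKM in controls and at 22.6, 20.4 and 21.8 FPKM with dacomitinib. It fell by 0.73 (SE 0.05, adjusted p = 4.09e-05; -0.43 with TPM), with no overlap. ELOVL7 moved the other way, from 4.21, 3.98 and 3.70 FPKM to 5.66, 5.12 and 5.25 FPKM (0.35, SE 0.07, adjusted p = 0.00385; 0.71 with TPM).

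ELOVL4, which makes the ultra-long chains of acylceramides, was low in both groups, at 1.76, 1.22 and 1.43 FPKM in controls and 1.30, 1.41 and 1.44 FPKM with dacomitinib. It did not pass (-0.05, SE 0.13, adjusted p = 0.765). ELOVL3, known from sebaceous glands and hair follicles, had 0 fragments in all libraries. The summed FPKM of ELOVL1, ELOVL4, ELOVL6 and ELOVL7, which leaves out ELOVL5 and other elongases outside the set, was 58.1 ± 0.203 in controls and 32.4 ± 1.23 with dacomitinib (SD, n = 3). Within that sum ELOVL6 passed from 28.4, 26.6 and 29.1% to 12.3, 13.7 and 12.1%, and ELOVL7 from 7.23, 6.85 and 6.40% to 16.8, 16.4 and 16.2%. ELOVL1, although lower in level, held a larger share in the treated libraries, 66.6 ± 1.04% against 62.6 ± 1.65%.

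SLC27A4 activates long-chain fatty acids and is mutated in ichthyosis prematurity syndrome. It stood at 30.6, 28.3 and 27.7 FPKM in controls and fell to 22.1, 22.2 and 19.6 FPKM (-0.42, SE 0.07, adjusted p = 0.00148). With TPM the difference was -0.12 and did not pass (adjusted p = 0.168; 0.000243 to 0.168 over its alternatives). FA2H, the fatty acid 2-hydroxylase, was not tested, with 64 fragments in the pooled controls and 98 in the pooled treated libraries.

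**Figure D3:**
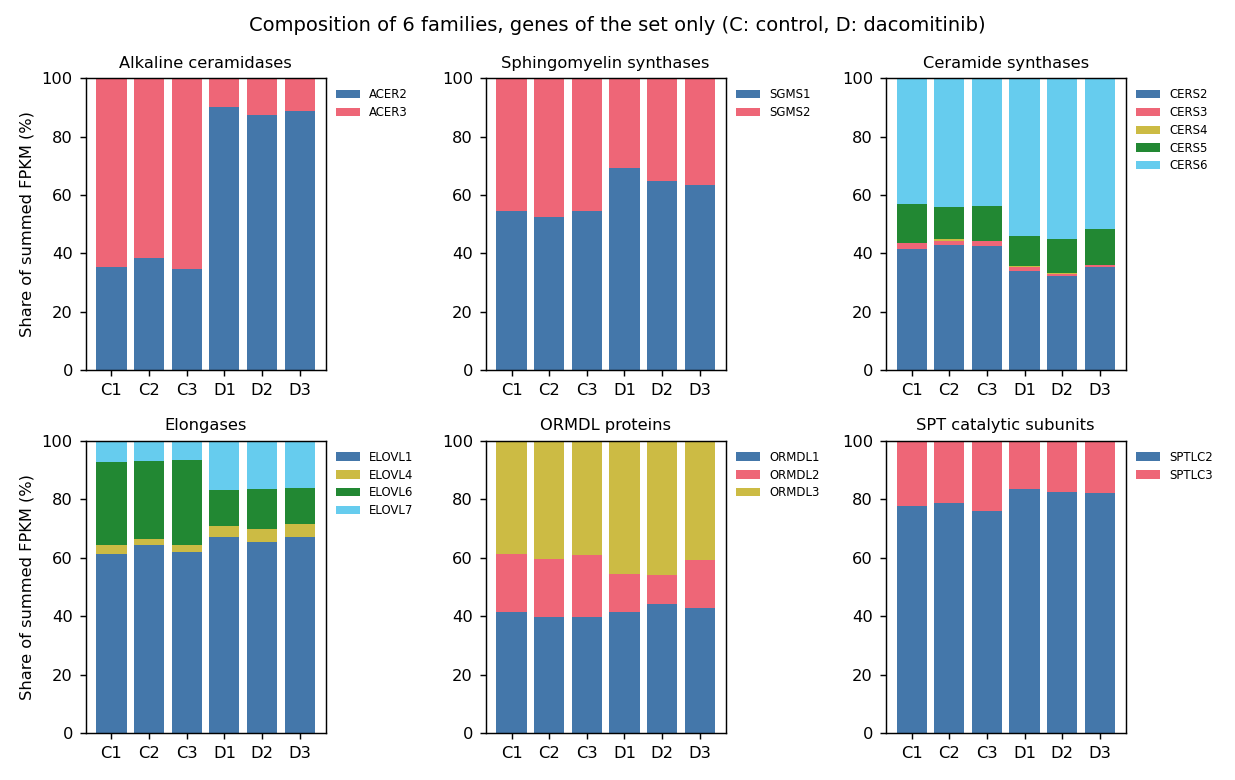
Share of each gene in the summed FPKM of its family, in percent, for the 3 control (C) and 3 dacomitinib (D) libraries; stacked bars add to 100%, and genes with no fragment are left out. Only genes of the set enter each sum. ACER3 holds 61.6 to 65.2% of ACER2 plus ACER3 in controls and 9.90 to 12.5% in treated libraries, and CERS6 holds 51.5 to 54.9% of the ceramide synthases in treated libraries.

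Apart from the share of UGCG, which was formed after the values were seen and is outside the adjustment, 14 shares in 7 families were compared. For 11 the groups did not overlap, and each of these gave p = 0.1 in the exact permutation test, the smallest possible (0.127 after Benjamini-Hochberg adjustment over the 14). None of the 14 could pass 0.05 with 3 against 3 libraries. The shares with overlap were those of ORMDL1, CERS5 and SPHK2.

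Genes of the last steps, which build acylceramide and the lipid envelope of the cornified layer, were mostly near or below detection in both groups. ABHD5, the lipase cofactor mutated in Chanarin-Dorfman syndrome, stood at 2.53, 2.91 and 2.34 FPKM in controls and fell to 1.39, 1.61 and 1.66 FPKM (-0.49, SE 0.10, adjusted p = 0.00599). With TPM it did not pass (-0.37, adjusted p = 0.0636; 0.000298 to 0.0636 over its alternatives). ABCA12, the lipid transporter of lamellar granules, stood at 1.09, 0.992 and 0.982 FPKM in controls and at 1.19, 0.954 and 1.01 FPKM with dacomitinib. Its groups overlapped (0.02, SE 0.13, adjusted p = 0.897), and it lies just inside the limit of 1 FPKM. The next lower gene of the set was FA2H, well outside the limit at a mean of 0.514 FPKM.

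The other envelope genes had few fragments. CYP4F22, the hydroxylase that makes the omega-hydroxy chains, had 0 fragments in all 6 libraries. PNPLA1, which transfers linoleate to them, had 1 fragment in the pooled controls and 3 in the pooled treated libraries. The lipoxygenases that oxidise acylceramide were scarce too: ALOX12B had 1 and 17 fragments, and ALOXE3 had 10 and 27. SULT2B1, which makes cholesterol sulfate, had 6 and 2. For ALOXE3 the treated libraries, at 0.0917 to 0.191 FPKM, lay above the controls, at 0.0543 to 0.0690 FPKM. With no filter on expression, 8 of the 10 genes under the limit could be tested, and 0 of the 8 passed (limma, adjusted p = 0.158 to 0.675; 0 of the 8 also at an unadjusted p under 0.05).

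The wider pathway was described with 114 genes in 6 lists, of which 67 were tested. Among 13 tested genes of sphingolipid breakdown and signalling, 6 rose and 6 fell (6 and 1 with TPM), with a median of -0.20. For this and the other lists the background is 25.4% rising and 34.8% falling among all tested genes (42% and 19.8% with TPM), at a median of -0.06. PSAP, the precursor of the lysosomal saposins, rose from 314 ± 9.002 to 740 ± 30.02 FPKM. PLPP1, a lipid phosphatase, rose from 6.67 ± 1.02 to 18.2 ± 0.679 FPKM, and SGPP1, a phosphatase of sphingosine-1-phosphate, from 20.8 ± 1.63 to 42.6 ± 1.69 FPKM. The acid ceramidase ASAH1, named because it is outside the ACER2 and ACER3 sum, rose from 7.45 ± 0.870 to 13.0 ± 0.240 FPKM. SMPD4, a neutral sphingomyelinase, fell from 15.6 ± 1.25 to 6.40 ± 0.790 FPKM (SD, n = 3). S1PR5, a receptor for sphingosine-1-phosphate, fell from 10.1 ± 1.38 to 7.10 ± 0.283 FPKM and PLPP2 from 12.3 ± 0.214 to 8.87 ± 0.864 FPKM; neither fall was called with TPM.

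Of 9 tested partners of synthesis and glycolipid formation, 2 rose and 3 fell (5 and 2 with TPM), with a median of -0.12. The small subunit SPTSSA, which activates serine palmitoyltransferase, rose from 14.6 ± 0.190 to 17.8 ± 1.17 FPKM, and SAMD8, which makes ceramide phosphoethanolamine, from 14.4 ± 0.423 to 16.5 ± 1.06 FPKM. UGT8, the galactosylceramide synthase, fell from 12.6 ± 0.882 to 5.32 ± 0.274 FPKM. B4GALT6, which makes lactosylceramide, fell from 2.51 ± 0.305 to 1.34 ± 0.211 FPKM. ARV1, a protein of sterol transport, fell from 8.21 ± 1.04 to 6.01 ± 0.987 FPKM (SD, n = 3). Its call was not made with TPM, median-ratio scaling or quantile normalization. The list held 3 calls without control replicate 2 or without dacomitinib replicate 2.

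Of 12 tested partners of fatty acid elongation and activation, 6 fell and 2 rose, beside 34.8% and 25.4% of all tested genes, with a median of -0.14. With TPM 3 fell and 5 rose, close to the 19.8% and 42% of all tested genes. ELOVL5, an elongase of polyunsaturated chains, fell from 34.9 ± 0.840 to 19.1 ± 1.32 FPKM. HACD3 and TECR, which act in the same elongation cycle as the ELOVL enzymes, fell from 26.1 ± 0.787 to 17.0 ± 0.655 FPKM and from 21.0 ± 0.461 to 15.1 ± 0.9003 FPKM. SLC27A1, a fatty acid transporter, rose from 2.27 ± 0.0956 to 3.20 ± 0.112 FPKM and ACSL1, an acyl-CoA synthetase, from 11.5 ± 1.41 to 14.3 ± 1.03 FPKM (SD, n = 3).

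Of 12 tested partners of the barrier and of lipid storage, 4 rose and 5 fell (6 and 3 with TPM), with a median of -0.05. PNPLA2, a triglyceride lipase that ABHD5 activates, rose from 15.8 ± 2.42 to 26.7 ± 3.32 FPKM, and PLIN2, a coat protein of lipid droplets, from 3.17 ± 0.527 to 5.58 ± 0.2998 FPKM. ALOX12, a lipoxygenase, rose from 1.92 ± 0.0763 to 3.87 ± 0.460 FPKM. STS, the steroid sulfatase lost in X-linked ichthyosis, fell from 5.80 ± 0.323 to 3.05 ± 0.138 FPKM. ABCA1, a cholesterol exporter, fell from 2.84 ± 0.536 to 1.16 ± 0.185 FPKM, and DGAT1, which makes triglyceride, from 14.3 ± 0.496 to 10.0 ± 1.46 FPKM (SD, n = 3); the fall of DGAT1 was not called with TPM.

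Of 15 tested regulators of barrier lipids, 3 rose and 3 fell (9 and 1 with TPM), with a median of 0.01. PPARA, a lipid-sensing nuclear receptor, rose from 3.15 ± 0.299 to 6.68 ± 0.422 FPKM, its partner RXRA from 38.3 ± 0.963 to 50.8 ± 3.52 FPKM, and KLF4, a factor of barrier formation, from 5.66 ± 0.297 to 7.63 ± 0.514 FPKM. CEBPA fell from 3.09 ± 0.598 to 1.21 ± 0.453 FPKM. GRHL2 fell from 21.2 ± 1.24 to 16.1 ± 0.592 FPKM and PPARD from 7.95 ± 0.224 to 6.74 ± 0.197 FPKM (SD, n = 3). Neither call was made with TPM or quantile normalization, and that of PPARD was also not made with median-ratio scaling. Of 18 markers of keratinocyte differentiation 6 were tested, of which 3 rose and 0 fell, beside 25.4% and 34.8% of all tested genes, with a median of 0.31. The list is small, and TGM1, 1 of the 3, reached the limit of 1 FPKM only through its treated libraries. Its entry into the test thus depended on its rise. FLG, the filament-aggregating protein of the cornified layer, rose from 2.47 ± 0.147 to 9.17 ± 0.480 FPKM, TGM1, the transglutaminase of the envelope, from 0.545 ± 0.0752 to 1.97 ± 0.568 FPKM, and KLK5, a protease of desquamation, from 66.4 ± 1.28 to 104 ± 8.51 FPKM (SD, n = 3). KRT10, IVL and KLK7 did not pass.

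**Figure D4:**
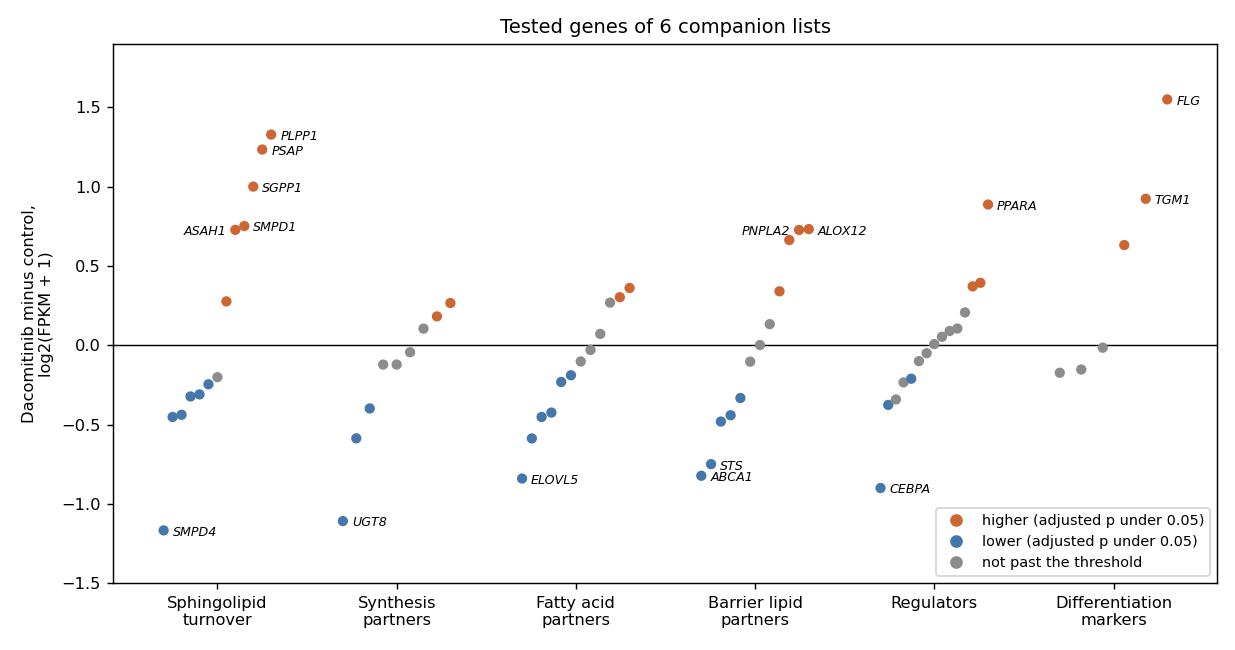
Difference between dacomitinib and control on the log2(FPKM + 1) scale for the 67 tested genes of 6 companion lists, with 1 point per gene; colour gives the call and genes at 0.7 or more in size are named. The sphingolipid breakdown list spans -1.17 for SMPD4 to 1.33 for PLPP1.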

How the data were processed

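RNA-seq of 3 control and 3 dacomitinib samples of HaCaT was analysed. The values are the authors' deposited FPKM, 1 column a library, with the authors' gene length. HISAT2, featureCounts, fastp, CASAVA, DESeq2 1.20.0 and build GRCh38 are named, with no role, per the submitters' processing notes. Multiplied by gene length, 100% of values were whole numbers of fragments (tolerance 0.01), from which fragments per gene were taken. Relative to the summed fragments, the library size inside the deposited FPKM was 0.952 ± 0.00449 in controls and 1.07 ± 0.0244 in treated libraries (SD, n = 3); how it was set is not given in the sources used here.

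limma 3.58.1 (R 4.3.3) with a mean-variance trend was fitted to log2(FPKM + 1) for all genes with a mean of at least 1 FPKM, two-sided, with Benjamini-Hochberg adjustment over all 13748 genes; the difference is dacomitinib minus control, and this scale understates the change of low genes. The procedure was tested on simulated data in which few genes changed and the library sizes were known. That test cannot show how the scaling between libraries affects the calls. The 36 genes, the companion lists and the tests were chosen with earlier results of these data known. Each tested gene of the set is given with its values. The companion genes named are up to 3 with the largest rise and 3 with the largest fall past the threshold in each list; 1 of the 114 was matched by gene identifier. Sequences are from RefSeq (GRCh38.p14), overlapping exons from GENCODE. Alternatives were another pseudocount, other filters and scalings, no trend, a replicate block, voom on fragments and leaving out each library.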

Additional observations from a re-analysis of the deposited data

How the results depend on the processing

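Over 16 alternatives, 14 of the 20 changed genes of the set kept direction and call in each alternative that tested them; the others were SPTLC1, SPTLC2, CERS5, SPHK1, SLC27A4 and ABHD5. Genes of the set that fell numbered 10 as reported, 6 with TPM and 6 at a mean of at least 5 FPKM, which tests fewer genes; when a library was left out 8 to 9 rose, in place of 10, and 10 to 11 fell. Calls in the companion lists were 12 for sphingolipid breakdown and 7 with TPM, 5 for synthesis partners, 3 without a filter and 3 to 5 when a library was left out, 9 for barrier lipid partners and 4 at a mean of at least 5 FPKM, and 6 for regulators and 10 with TPM. With TPM the sign was opposite for SPTLC2 (0.10), ORMDL2 (0.026), SGMS1 (0.11) and ELOVL4 (0.20). ELOVL4 was also opposite with median-ratio scaling (0.0046), voom with median-ratio sizes (0.021), voom with own sums (0.10) and when a library was left out (-0.12 to 0.036, the highest without control replicate 1), and ABCA12 with quantile normalization (-0.16) and when a library was left out (-0.027 to 0.057, the lowest without dacomitinib replicate 1); apart from SPTLC2 none of these was called in the reported test. Apart from the scaling and filter, the cause was not tested. No label states that replicate numbers pair the libraries, and the numbers of the treated columns rest on the assignment above. The correlation of same-numbered deviations was 0.0267, -0.0158 and 0.0402, which cannot decide whether the samples were paired. A replicate block gave 8 genes higher and 10 lower, without the calls of SPTLC1 (adjusted p = 0.0745) and CERS5 (adjusted p = 0.0556). Both voom fits, chosen after seeing the data, gave 11 higher, with 10 or 9 lower. Voom with another normalization and both planned count models were not run. The 10 genes under 1 FPKM had 0 to 221 fragments over the 6 libraries; how far depth limits their test was not tested.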

Other observations

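Among the 47 companion genes under the limit of 1 FPKM, 6 were called higher with dacomitinib when no expression filter was applied. They are named because of that call, so their fragments are no separate support for it. Without the filter 8689 genes of the whole table were called. The share among all genes under the limit was not computed, so the 6 calls have no background to be set against. Over the whole table, treated libraries held a fragment of 25693 to 25715 genes and controls of 23580 to 24131. SDR9C7, a dehydrogenase that acts on oxidised acylceramide, had 0 fragments in the pooled controls and 23 in the pooled treated libraries. S1PR1, a receptor for sphingosine-1-phosphate, had 0 and 48, and SMPD3, a neutral sphingomyelinase, had 48 and 178. PLA2G2F, an epidermal phospholipase, had 1 and 37. MAF, a transcription factor of keratinocyte differentiation, had 6 and 129, and KRTDAP, a secreted protein of differentiating keratinocytes, had 2 and 19.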
